A study of Mus musculus with 8 samples.

Results

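The 33 genes described here encode the digestive machinery of the lysosome: 11 cysteine peptidases (cathepsins and legumain), 4 aspartic and serine peptidases, 8 glycosidases, 5 lipid-degrading enzymes and activators, and 5 membrane proteins. They were chosen by name, through the RefSeq accession of each array probe, out of 22911 genes with a probe, and 47 probes carried them. The study hybridised RNA of mice to 8 one-colour microarrays, so that each of its 8 groups has 1 array. The 4 tissue arrays held RNA of a brain slice from the ischemic side, taken at day 14 after stroke or sham surgery from wild type (WT) or DEREG mice. DEREG mice carry a diphtheria toxin receptor transgene under Foxp3 control, which renders regulatory T cells (Treg) killable by that toxin; toxin dosing, age and any pooling of animals are not given in the labels used here. The 4 T cell arrays held CD4 T cells, divided into Treg and the other CD4 T cells (nonTreg), from the ischemic brain of WT mice at day 14 and from the spleen of untreated mice. How the Treg were sorted from the nonTreg is likewise not given. A brain and a spleen T cell sample therefore differ both in organ and in whether the mouse had a stroke.

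Lysosomes are acidic organelles in which proteins, glycans and lipids delivered by endocytosis, phagocytosis and autophagy are broken down. Most of their enzymes are made in the endoplasmic reticulum, tagged with mannose 6-phosphate and carried to the lysosome by receptors, and a proton pump, the vacuolar ATPase, keeps the lumen acidic. In the brain, microglia and infiltrating macrophages are rich in lysosomal proteases, and in antigen-presenting cells the same proteases trim the invariant chain of MHC class II molecules. Many lysosomal genes carry in their promoter the E-box core CACGTG, which the MiT/TFE family of transcription factors (Tfeb, Tfe3, Mitf, Tfec) can bind.

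Promoter stretches that hold this core are shown because most of the genes were higher after stroke. RefSeq promoters of the assembly GRCm38.p6, running from 250 bases before to 50 bases after the transcript start, were matched to 27 of the 33 genes. A gene could have more than 1 such start, and 30 promoters stood for these 27 genes. CACGTG, which reads the same on both strands, was present in 10 of the 27 (Ctsa, Ctsd, Ctsf, Ctsl, Gaa, Gla, Glb1, Lamp1, Lgmn and Naglu), beside 7.15% of the 32851 promoters of that length in the table and 8.09% of its 27025 genes. The longer CLEAR palindrome, 10 bases with the same core at its centre, was in 0 of the 27, beside 0.326% of all promoters. A stretch of 70 bases is printed, 5′ to 3′ in the direction of the gene, for the 8 genes in which a core before the start had a T next to it on the left or an A on the right, with every CACGTG in capitals.
Ctsa (chr2:164833703-164833772, plus strand): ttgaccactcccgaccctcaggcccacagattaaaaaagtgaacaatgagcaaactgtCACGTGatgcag
Ctsd (chr7:142387888-142387957, minus strand): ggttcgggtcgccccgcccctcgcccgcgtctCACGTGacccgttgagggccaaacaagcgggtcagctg
Lamp1 (chr8:13159091-13159160, plus strand): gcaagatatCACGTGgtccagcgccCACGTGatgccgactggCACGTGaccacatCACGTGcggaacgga
Glb1 (chr9:114400998-114401067, plus strand): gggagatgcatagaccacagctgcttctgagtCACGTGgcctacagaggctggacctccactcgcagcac
Naglu (chr11:101069989-101070058, plus strand): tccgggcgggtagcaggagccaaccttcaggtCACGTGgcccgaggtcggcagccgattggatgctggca
Gaa (chr11:119267791-119267860, plus strand): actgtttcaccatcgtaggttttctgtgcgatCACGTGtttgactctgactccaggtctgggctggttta
Lgmn (chr12:102439104-102439173, minus strand): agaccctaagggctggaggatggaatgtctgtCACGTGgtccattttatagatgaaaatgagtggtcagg
Gla (chrX:134601162-134601231, minus strand): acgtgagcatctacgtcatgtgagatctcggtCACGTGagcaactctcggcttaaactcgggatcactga
Lamp1 held 4 copies of the core within this stretch, and each of the other stretches held 1. The Ctsa and Lgmn stretches lie within the span of their genes, before an inner transcript start. The median log2 difference between WT ischemia and WT sham was 2.33 for the 10 genes with the core and 3.10 for the 17 without. Gaa (-0.51), Gla (-0.21) and Ctsf (0.13), which were not 2-fold higher after stroke, are among the 10 with it. Neu1 (0.48) and Ppt1 (0.83), also under 2-fold in WT, are among the 17 without it. A match describes these letters and not a bound site.

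Signals are given as scaled fluorescence intensity, which can be compared between the 4 arrays of a set (tissue or T cell) for the same gene, and not between genes or between the sets. A difference is the ratio of scaled signals as a fold, or its log2 value, and genes at or over 2-fold were counted. "At least" marks a lower bound, given where the dimmer array did not detect the probe well above background. No group was replicated, so nothing was tested between groups and every value describes these libraries alone; the median SD between replicate spots of the same probe was 0.039 to 0.042 (log2), which covers technical error only. The share of probes well above background was 62.0% to 65.1% on tissue arrays and 47.6% to 51.9% on T cell arrays. Of the 33 genes, 31 were well above background on all 4 tissue arrays and 29 on all 4 T cell arrays. On each T cell array 11 of 11 T cell markers were well above background. Foxp3, the transcription factor that defines Treg, had a signal of 7782 in spleen Treg, 12.2 (not well above background) in spleen nonTreg, 3843 in brain Treg and 726.4 in brain nonTreg. In the library labelled brain nonTreg all 10 Treg markers were well above background and 8 of 10 were at least 2-fold higher than in spleen nonTreg (summed signal 21670 against 5218). This goes against reading that label as free of Treg marker RNA. In brain Treg 7 of the 10 markers were at least 2-fold higher than in brain nonTreg and 0 lower (summed signal 56630 against 21670). The brain libraries thus still differed in the direction of their labels. All 10 neuron markers were well above background on each tissue array. Foxp3 was not well above background on any tissue array and so gives no check of the DEREG label.

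After stroke nearly all of these genes were higher. In WT tissue 28 of the 33 genes were at least 2-fold higher in ischemia than in sham and 0 were at least 2-fold lower, while the shares over all 16968 genes compared were 18.8% higher and 18.4% lower. In DEREG tissue 29 of 33 were higher and 0 lower, beside 22.4% and 22.1% of all 17161 genes compared. The median log2 difference of the 33 genes was 3.02 in WT and 3.32 in DEREG, and that of all genes was -0.19 and -0.09. For 30 of the 33 genes both ischemia arrays lay above both sham arrays and for 2 both lay below, beside 39.9% above and 47.5% below of the 17409 genes well above background on at least 1 tissue array. Since this is RNA of whole tissue, more cells of a type and more RNA per cell cannot be told apart.

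**Figure D1:**
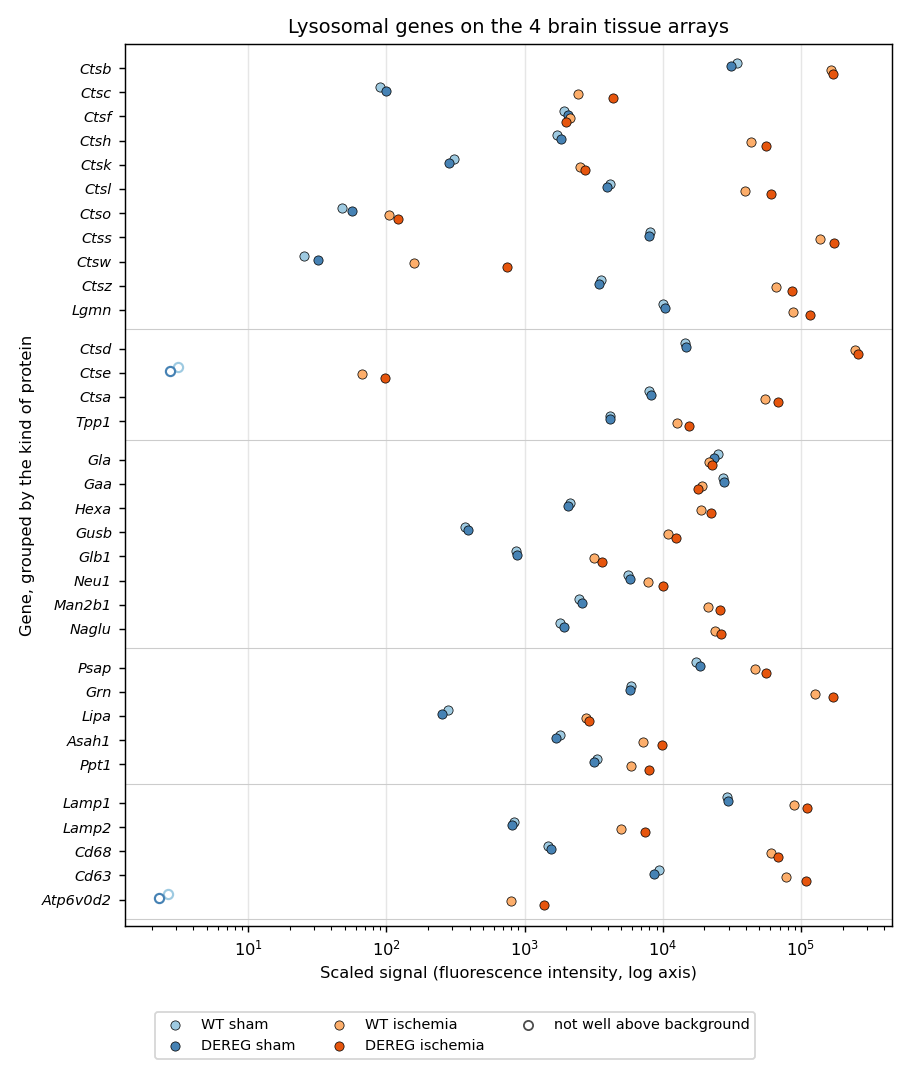
Scaled signal (fluorescence intensity, log axis) of each of the 33 genes on the 4 tissue arrays, 1 point per array, grouped by kind of protein; open points were not well above background. For 30 genes both ischemia points lie to the right of both sham points, and Gaa, Gla and Ctsf are the genes for which they do not.

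Among the cysteine cathepsins and legumain, 10 of 11 were at least 2-fold higher in ischemia in each genotype, with a median of 8.71-fold in WT and 15.3-fold in DEREG. Ctsc encodes dipeptidyl peptidase I, which activates the serine proteases of granules. Its signal was 90.0 and 99.0 on the WT and DEREG sham arrays and 2420 and 4384 on the WT and DEREG ischemia arrays, so that it was 26.9-fold higher after stroke in WT and 44.3-fold higher in DEREG. Ctsh, an aminopeptidase, had signals of 1728 and 1821 on the WT and DEREG sham arrays and 43540 and 55380 on the WT and DEREG ischemia arrays, a difference of 25.2-fold and 30.4-fold. Both genes had well separated sham and ischemia arrays, and both were a little higher in DEREG than in WT ischemia.

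Ctsz, a carboxypeptidase, was at 3554 and 3434 on the WT and DEREG sham arrays and 65570 and 86120 on the WT and DEREG ischemia arrays (18.5-fold and 25.1-fold). Ctss, the endopeptidase that completes invariant chain processing in antigen-presenting cells, was at 8104, 7943, 137300 and 173100 in the same order (16.9-fold and 21.8-fold). Ctsl, a broadly expressed endopeptidase, was at 4168, 3957, 39090 and 60550 (9.38-fold and 15.3-fold). These 3 cathepsins showed the same order of arrays, with the 2 sham arrays nearly equal and DEREG ischemia above WT ischemia. Legumain (Lgmn), which cuts after asparagine and matures other cathepsins, was at 10050 and 10340 on the WT and DEREG sham arrays and 87520 and 117100 on the WT and DEREG ischemia arrays (8.71-fold and 11.3-fold). Ctsk, known as the collagen-degrading protease of osteoclasts, was at 307.0, 282.9, 2498 and 2729 (8.14-fold and 9.65-fold).

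Ctsw stood apart among the cathepsins in how the genotypes differed. It encodes a cathepsin found mainly in cytotoxic T cells and natural killer cells. Its signal was 25.1 and 32.0 on the WT and DEREG sham arrays and 159.1 and 749.4 on the WT and DEREG ischemia arrays. Both ischemia arrays were above both sham arrays, by 6.33-fold in WT and 23.4-fold in DEREG. Ctsb, an abundant protease with both endopeptidase and exopeptidase activity, was at 34380 and 31270 on the WT and DEREG sham arrays and 164900 and 170500 on the WT and DEREG ischemia arrays (4.80-fold and 5.45-fold). Ctso was at 47.5, 56.0, 104.6 and 121.7 (2.20-fold and 2.17-fold), and it was under 2-fold in both genotypes with normexp background correction and in WT with the median as scaling point. Ctsf was the cathepsin under 2-fold, at 1935 and 2051 on the WT and DEREG sham arrays and 2117 and 1981 on the WT and DEREG ischemia arrays.

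All 4 aspartic and serine peptidases were at least 2-fold higher in ischemia in both genotypes. Cathepsin D (Ctsd), the main aspartic protease of lysosomes, was at 14380 and 14830 on the WT and DEREG sham arrays and 247400 and 256500 on the WT and DEREG ischemia arrays, 17.2-fold and 17.3-fold higher. Here the genotypes were nearly alike. Ctsa, the protective protein that stabilises neuraminidase and beta-galactosidase, was at 7949, 8222, 55170 and 68270 (6.94-fold and 8.30-fold). Tpp1, a tripeptidyl peptidase whose loss causes a childhood neuronal ceroid lipofuscinosis, was at 4147, 4176, 12660 and 15420 (3.05-fold and 3.69-fold). Cathepsin E (Ctse), an endosomal aspartic protease of immune cells, was not well above background on either sham array (3.12 in WT and 2.70 in DEREG) and reached 66.2 in WT ischemia and 97.7 in DEREG ischemia. It was therefore at least 5.50-fold higher after stroke in WT and at least 9.30-fold higher in DEREG.

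The glycosidases divided into 5 genes that were at least 2-fold higher after stroke and 3 that were not, and the same 5 passed in both genotypes. Gusb, beta-glucuronidase, was at 372.4 and 386.1 on the WT and DEREG sham arrays and 10850 and 12540 on the WT and DEREG ischemia arrays, 29.1-fold and 32.5-fold higher. Naglu, which degrades heparan sulfate, was at 1792, 1918, 23740 and 26280 (13.3-fold and 13.7-fold). Hexa, which removes terminal hexosamines from gangliosides, was at 2140, 2075, 18940 and 22280 (8.86-fold and 10.74-fold). In all of these the sham arrays were nearly equal. Man2b1, lysosomal alpha-mannosidase, was at 2462 and 2587 on the WT and DEREG sham arrays and 21060 and 25770 on the WT and DEREG ischemia arrays (8.56-fold and 9.96-fold), and Glb1, beta-galactosidase, was at 865.6, 875.1, 3153 and 3600 (3.64-fold and 4.11-fold). The remaining 3 glycosidases did not reach 2-fold in any of the 8 comparisons. Neu1, neuraminidase, had log2 differences of 0.48 in WT and 0.79 in DEREG after stroke, Gla, alpha-galactosidase A, -0.21 and -0.05, and Gaa, the acid alpha-glucosidase that degrades glycogen, -0.51 and -0.64.

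Of the lipid-degrading enzymes and activators, 4 of 5 were at least 2-fold higher after stroke in WT and 5 of 5 in DEREG. Progranulin (Grn), a secreted and lysosomal glycoprotein cut into granulins, was at 5870 and 5791 on the WT and DEREG sham arrays and 125200 and 170800 on the WT and DEREG ischemia arrays, 21.3-fold and 29.5-fold higher. Lysosomal acid lipase (Lipa), which frees cholesterol from its esters, was at 278.5, 252.5, 2788 and 2901 (10.01-fold and 11.5-fold). Acid ceramidase (Asah1) was at 1791, 1692, 7189 and 9936 (4.02-fold and 5.87-fold). In each of these the ischemia arrays lay far above the sham arrays. Prosaposin (Psap), the precursor of the saposins that present sphingolipids to their hydrolases, was at 17320 and 18570 on the WT and DEREG sham arrays and 46260 and 55490 on the WT and DEREG ischemia arrays (2.67-fold and 2.99-fold). Ppt1, a palmitoyl-protein thioesterase, was at 3316, 3182, 5891 and 7879 (1.78-fold and 2.48-fold). Its 2 further probes gave log2 differences of 1.63 and 0.46 in WT, on either side of the 0.83 of the probe used.

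The 5 membrane proteins were all at least 2-fold higher after stroke in both genotypes. Cd68, the macrophage sialomucin of endosomes and lysosomes, was at 1486 and 1540 on the WT and DEREG sham arrays and 60400 and 68630 on the WT and DEREG ischemia arrays, 40.6-fold and 44.6-fold higher, and its second probe gave a log2 difference of 5.51 in WT against 5.34 for the probe used. Atp6v0d2, a subunit of the proton pump found in macrophages and osteoclasts, was not well above background on the sham arrays (2.64 in WT and 2.28 in DEREG) and was at 795.4 in WT ischemia and 1384 in DEREG ischemia. That is at least 66.0-fold higher in WT and at least 131.8-fold higher in DEREG. In both genotypes these were the widest separations of sham and ischemia arrays among the 33 genes. Cd63, a tetraspanin of late endosomes, was at 9330, 8670, 77640 and 108000 in the order given for Cd68 (8.32-fold and 12.5-fold). Lamp2, a lysosomal membrane glycoprotein needed for fusion with autophagosomes, was at 836.1, 806.0, 4952 and 7405 (5.92-fold and 9.19-fold). Lamp1, its close relative, was at 29320, 29500, 88990 and 109700 (3.04-fold and 3.72-fold).

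**Figure D2:**
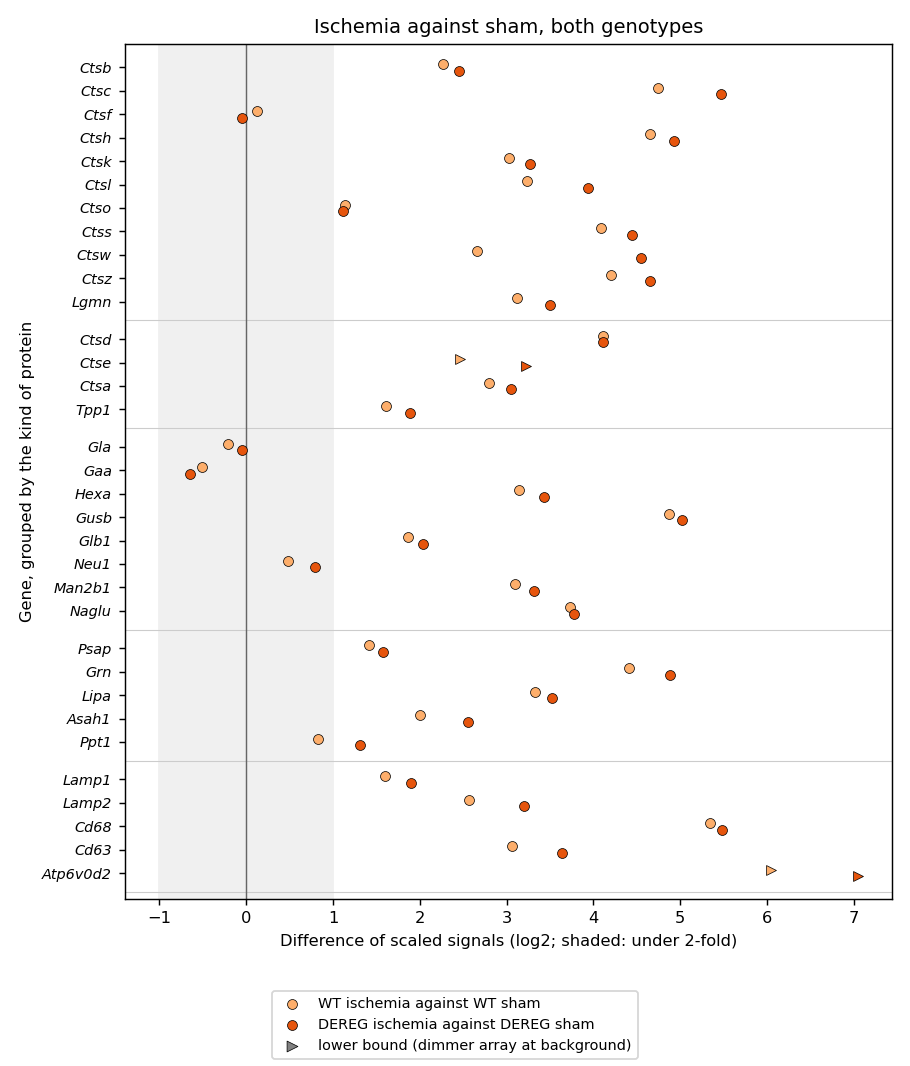
Log2 difference of scaled signals between ischemia and sham for each of the 33 genes in WT and in DEREG tissue; triangles are lower bounds and the shaded band is under 2-fold. In WT 28 genes and in DEREG 29 genes lie right of the band, and Ctsf, Gla, Gaa and Neu1 lie within it in both.

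Other genes of the lysosome, from lists fixed by function, did not all share this pattern. Of 31 other lysosomal hydrolases and activators compared, 21 were at least 2-fold higher and 2 lower in WT ischemia than in WT sham (median log2 difference 1.62), among them lysozyme (Lyz2, 549.7-fold higher) and the acid phosphatase Acp5 (72.7-fold). Of 30 further membrane proteins and transporters, 14 were higher and 4 lower (median 0.91), with the peptide transporter Slc15a3 at 71.5-fold, the metal transporter Slc11a1 at 38.6-fold and Laptm5 at 27.5-fold higher. The vacuolar ATPase went the other way: 2 of 19 subunits were higher and 7 lower (median -0.66). Its members that were higher were Tcirg1, the a3 subunit of macrophages and osteoclasts (16.8-fold), and Atp6v0e (3.70-fold), while Atp6v1g2, a subunit of neurons, was 4.59-fold lower.

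The machinery that sorts hydrolases to lysosomes had 3 of 18 genes higher and 1 lower (median 0.01), with Nagpa, the uncovering enzyme of the mannose 6-phosphate tag, 3.64-fold higher and the sorting receptor Sort1 2.41-fold lower. The MiT/TFE factors and the lysosome-based control of mTORC1 had 4 of 19 higher and 3 lower (median 0.02), with Fnip2 5.87-fold higher, Rragd 3.21-fold lower and Mitf 2.99-fold higher. Autophagy genes had 2 of 20 higher and 1 lower (median -0.31), Vamp8, a fusion SNARE, being 10.5-fold higher. By contrast, 8 of 11 cystatins and other protease inhibitors were higher and 1 lower (median 1.93), among them Serpina3n at 62.2-fold, and 10 of 10 genes of MHC class II loading were higher (median 4.83), among them H2-Aa at 56.5-fold. Against a background of 18.8% higher and 18.4% lower, the shares of the sorting, mTORC1 and autophagy lists that were higher were near or below the background, and those of the hydrolase, inhibitor and MHC class II lists were far above it.

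**Figure D3:**
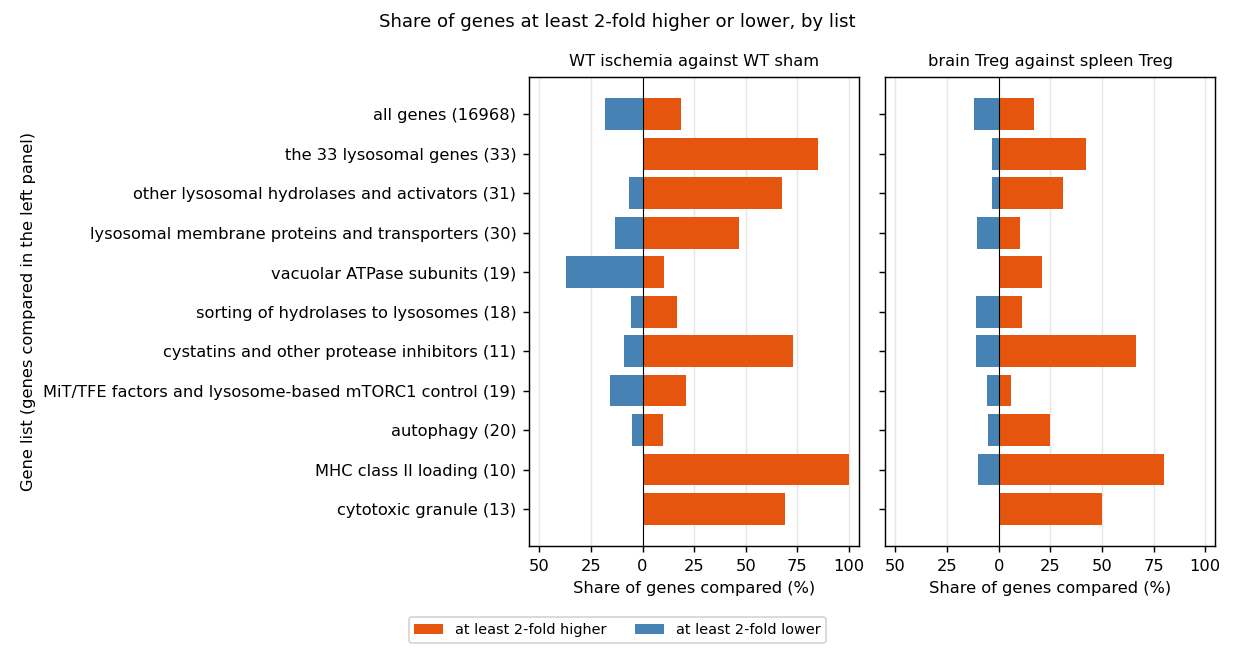
Share (%) of compared genes 2-fold or more higher (right) or lower (left), for all genes, the 33 lysosomal genes and 9 lists, in WT ischemia against WT sham and in brain Treg against spleen Treg; numbers in brackets are genes compared in the left panel. After stroke 28 of the 33 lysosomal genes were higher, whereas 7 of 19 vacuolar ATPase subunits were lower.

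Markers of macrophages and microglia moved with these differences, and so did part of the markers of other cells. In WT ischemia against sham 5 of 7 CD8 T and NK cell markers compared were at least 2-fold higher and 1 lower. For Treg markers it was 5 of 8 higher and 2 lower. Higher with 0 lower were 5 of 8 neutrophil, 5 of 11 T cell, 3 of 8 astrocyte and 3 of 7 dendritic cell markers. Of 8 oligodendrocyte markers 0 were higher or lower. In WT ischemia 13 of 13 macrophage and monocyte markers were at least 2-fold higher than in sham (median log2 difference 4.70) and 10 of 12 microglia markers (median 2.69), while 10 of 10 neuron markers were lower (median -1.91) and 6 of 8 fibroblast and pericyte markers were higher (median 3.18). The summed signal of the macrophage and monocyte list was 28970 and 30350 on the WT and DEREG sham arrays and 281700 and 364600 on the WT and DEREG ischemia arrays, and that of the microglia list was 72400, 63840, 332100 and 382000. Lyz2, which is in the macrophage list, is a lysosomal enzyme itself, and Cd163 and Ccr2 were the macrophage markers not well above background on the sham arrays. The summed signal of the neuron list was 187400 and 173900 on the WT and DEREG sham arrays and 49220 and 22010 on the WT and DEREG ischemia arrays. The part of these cell types in the lysosomal differences was not tested.

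Within ischemia, DEREG and WT tissue differed by less. Ctsw was the only gene of the 33 at least 2-fold apart, 4.71-fold higher in DEREG ischemia than in WT ischemia, and 0 were lower, beside 2.36% of all 16857 genes compared that were higher and 5.37% that were lower. The second probe of Ctsw gave a log2 difference of 2.05 against 2.24 for the probe used. Most of the other genes were slightly higher in DEREG ischemia: 31 of 33 had a difference above 0, where 59.2% of all measured genes did, and the median log2 difference was 0.30 against 0.08. Over the alternative settings the number above 0 ran from 27 to 31. After Ctsw the next in order were Ctsc (1.81-fold), Atp6v0d2 (1.74-fold), Ctsl (1.55-fold), Lamp2 (1.495-fold) and Ctse (1.47-fold). Gaa and Ctsf had values below 0, at -0.11 and -0.10.

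In sham tissue the genotypes were close for these genes. At 2-fold, 0 of 31 genes were higher and 0 lower in DEREG sham, beside 0.59% and 0.449% of all 16273 genes compared, and the median log2 difference was 0.02. The stroke difference minus that in the other genotype (DEREG minus WT) could be formed for 31 genes; its median was 0.27 against 0.06 for all 15120 genes, it was above 0 for 28 of the 31, where 55.9% of all genes were, and it reached 2-fold upward for Ctsw (1.89) and downward for 0 genes, beside 0.91% and 5.21% of all genes. The same 28 genes that were at least 2-fold higher after stroke in WT were so in DEREG, beside 17.8% of all 16722 genes compared in both genotypes, and Ppt1 was added in DEREG. The Ppt1 call depended on processing. It was lost in DEREG with the median over a gene's probes and gained in WT with quantile normalization. None of the 33 was 2-fold lower in both genotypes, beside 17.4% of all genes. The ischemia arrays enter both the genotype comparison and this difference, so these are not separate observations.

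Markers of T cells, CD8 T cells and NK cells were higher in the same library. In DEREG ischemia against WT ischemia 10 of 11 T cell markers were at least 2-fold higher (median log2 difference 1.80), as were 7 of 9 CD8 T and NK cell markers compared (median 1.54) and 7 of 14 cytotoxic granule genes, while 0 of 12 microglia markers (median 0.22) and 1 of 13 macrophage and monocyte markers (median 0.38) were, and 6 of 10 neuron markers were lower (median -1.16). Of the B cell markers compared, 2 of 6 were at least 2-fold higher (median 0.40), and of the Treg markers 2 of 8 (median 0.39). Neutrophil markers were higher in 4 of 8 (median 0.93). Among the granule genes, the granzyme Gzmb had a signal of 88.5 in WT ischemia and 640.1 in DEREG ischemia, 7.23-fold higher. The summed signal of the T cell list was 1678 and 1898 on the WT and DEREG sham arrays and 2839 and 8576 on the WT and DEREG ischemia arrays. Ncr1 was the CD8 T and NK cell marker not well above background on any tissue array. Ctsw, Gzmb and the T cell markers were thus higher in the library with the higher T cell signal; the part of the number of T cells in the Ctsw difference was not tested.

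Among the libraries labelled CD4 T cells, the lysosomal genes were more often higher in the brain than in the spleen. Markers of other cells were also measured in the brain libraries and are given below. In Treg 14 of 33 were at least 2-fold higher in the brain and 1 lower, beside 17.2% higher and 11.7% lower of all 13779 genes compared, and the median log2 difference was 0.74 against -0.04. In nonTreg 12 of 32 were higher and 2 lower, beside 17.8% and 12.1% of 13404 genes, and the median was 0.46 against -0.07. For 21 of the 33 genes both brain arrays lay above both spleen arrays, and for 3 both lay below, beside 38.8% above and 36.2% below of the 14293 genes well above background on at least 1 T cell array. With lower bounds included, the brain exceeded the spleen by 2-fold or more in both cell types for 11 of 32 genes and lay below by as much for 1 (Ctso), beside 13.4% and 7.89% of all 13010 genes compared in both.

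**Figure D4:**
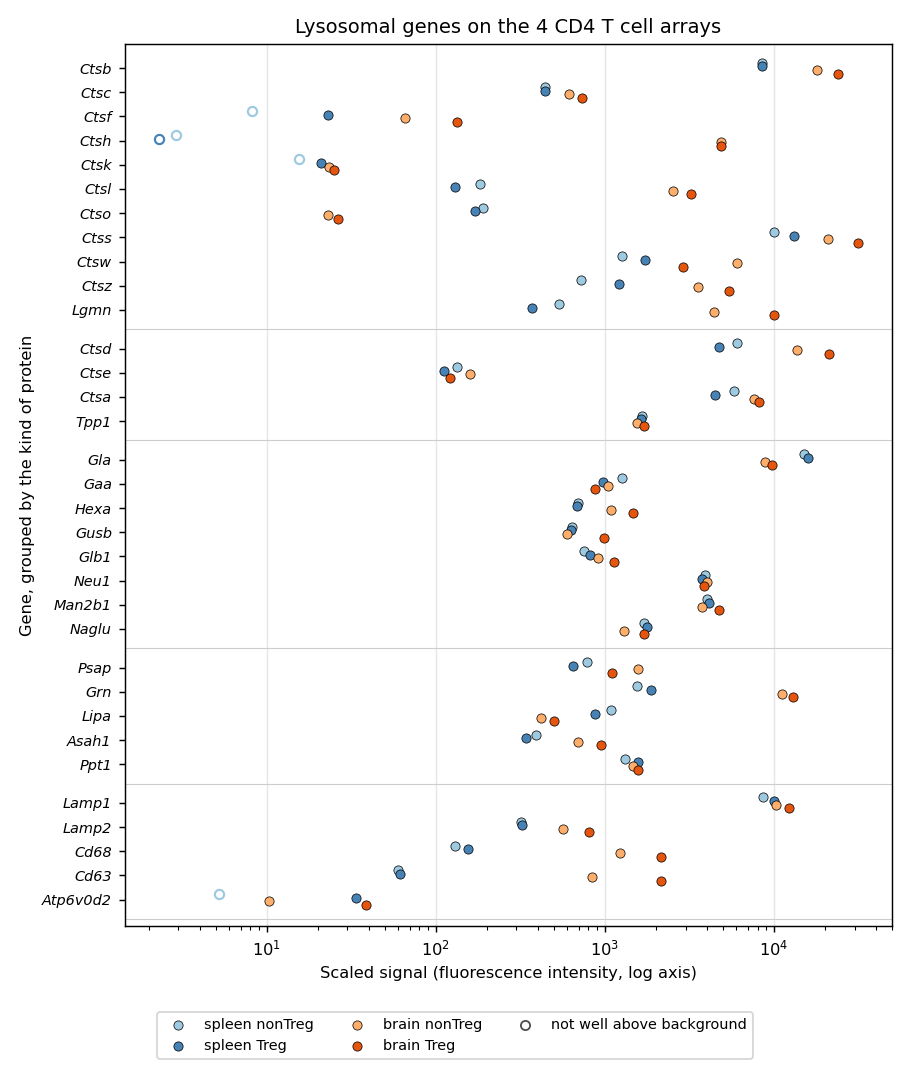
Scaled signal (fluorescence intensity, log axis) of each of the 33 genes on the 4 T cell arrays, 1 point per array; open points were not well above background. For 21 genes both brain points lie right of both spleen points, most widely for Ctsh, and for Ctso, Lipa and Gla both lie left of them.

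The cysteine cathepsins held most of these differences, with 7 of 11 higher and 1 lower in Treg and 8 of 11 higher and 1 lower in nonTreg. Ctsh had signals of 4871 in brain nonTreg and 4835 in brain Treg and was not well above background on either spleen array (2.90 in nonTreg and 2.32 in Treg), so that it was at least 491.0-fold higher in brain than in spleen Treg and at least 394.2-fold higher in nonTreg. Ctsl was at 182.8 in spleen nonTreg, 129.6 in spleen Treg, 2528 in brain nonTreg and 3249 in brain Treg, 25.1-fold higher in brain Treg than in spleen Treg and 13.8-fold in nonTreg. Lgmn was at 536.4, 370.0, 4410 and 10050 in the same order (27.2-fold and 8.22-fold). All 3 had both brain arrays far above both spleen arrays, and Lgmn was the one in which brain Treg and brain nonTreg were also apart.

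Ctsz was at 719.2 in spleen nonTreg, 1207 in spleen Treg, 3547 in brain nonTreg and 5414 in brain Treg (4.49-fold higher in brain than in spleen Treg and 4.93-fold in nonTreg). Ctsb was at 8506, 8448, 18020 and 23930 (2.83-fold and 2.12-fold), and Ctss at 10070, 13230, 20770 and 31250 (2.36-fold and 2.06-fold). The nonTreg values of Ctsb and Ctss were near the threshold and, like that of Ctsd (2.27-fold), lay under it with quantile normalization. Ctsf was dim, at 8.12 (not well above background) in spleen nonTreg, 23.1 in spleen Treg, 65.5 in brain nonTreg and 132.6 in brain Treg, 5.75-fold above spleen in Treg and at least 5.30-fold in nonTreg. Ctsw was at 1269 in spleen nonTreg, 1728 in spleen Treg, 6018 in brain nonTreg and 2915 in brain Treg, 4.74-fold higher in brain than in spleen nonTreg and 1.69-fold in Treg. Brain nonTreg was its highest array, and its second probe, with log2 differences of 3.61 in nonTreg and 1.57 in Treg, placed both above 2-fold.

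Ctso went the opposite way, at 191.3 in spleen nonTreg, 171.3 in spleen Treg, 22.9 in brain nonTreg and 26.3 in brain Treg. It was 6.51-fold lower in brain than in spleen Treg and 8.34-fold lower in nonTreg, and the brain and spleen arrays did not overlap. Ctsc and Ctsk did not reach 2-fold in any T cell comparison, with log2 differences of 0.74 and 0.26 between brain and spleen Treg.

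Outside the cathepsins fewer genes reached 2-fold. Ctsd was at 6068 in spleen nonTreg, 4742 in spleen Treg, 13770 in brain nonTreg and 21110 in brain Treg (4.45-fold higher in brain Treg than in spleen Treg and 2.27-fold in nonTreg). Of the glycosidases, Hexa alone reached 2-fold in Treg (2.14-fold; 689.2, 688.1, 1082 and 1469 in the same order) and 0 did in nonTreg. Grn was at 1557 in spleen nonTreg, 1870 in spleen Treg, 11190 in brain nonTreg and 12900 in brain Treg, 6.90-fold and 7.19-fold higher in the brain. Brain and spleen arrays were well apart for Grn, whereas the brain arrays were close, and a further probe gave larger log2 differences of 3.83 in Treg and 4.58 in nonTreg against 2.79 and 2.85 for the probe used. Asah1 was at 393.5, 341.5, 695.7 and 944.2 (2.77-fold in Treg and 1.77-fold in nonTreg). Lipa was lower in the brain, at 1086 in spleen nonTreg, 870.9 in spleen Treg, 418.2 in brain nonTreg and 501.1 in brain Treg (1.74-fold lower in Treg and 2.60-fold lower in nonTreg).

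Of the membrane proteins, Cd63 was at 59.4 in spleen nonTreg, 61.0 in spleen Treg, 842.2 in brain nonTreg and 2163 in brain Treg, 35.4-fold higher in brain than in spleen Treg and 14.2-fold in nonTreg. Cd68 was at 130.1, 154.3, 1229 and 2145 in the same order (13.9-fold and 9.45-fold). Lamp2 was at 319.2, 322.6, 562.9 and 810.9 (2.51-fold and 1.76-fold). These 3 shared an order of arrays, with the spleen arrays nearly equal, brain nonTreg above them and brain Treg highest. Atp6v0d2 was dim, at 5.20 (not well above background) in spleen nonTreg, 33.7 in spleen Treg, 10.3 in brain nonTreg and 38.8 in brain Treg, and was higher in Treg than in nonTreg in both organs. Lamp1, Tpp1, Gaa, Glb1, Neu1, Man2b1, Naglu, Ppt1, Ctsa, Ctse, Gusb, Psap and Gla did not reach 2-fold in any T cell comparison; Psap was 1.996-fold higher in brain than in spleen nonTreg.

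**Figure D5:**
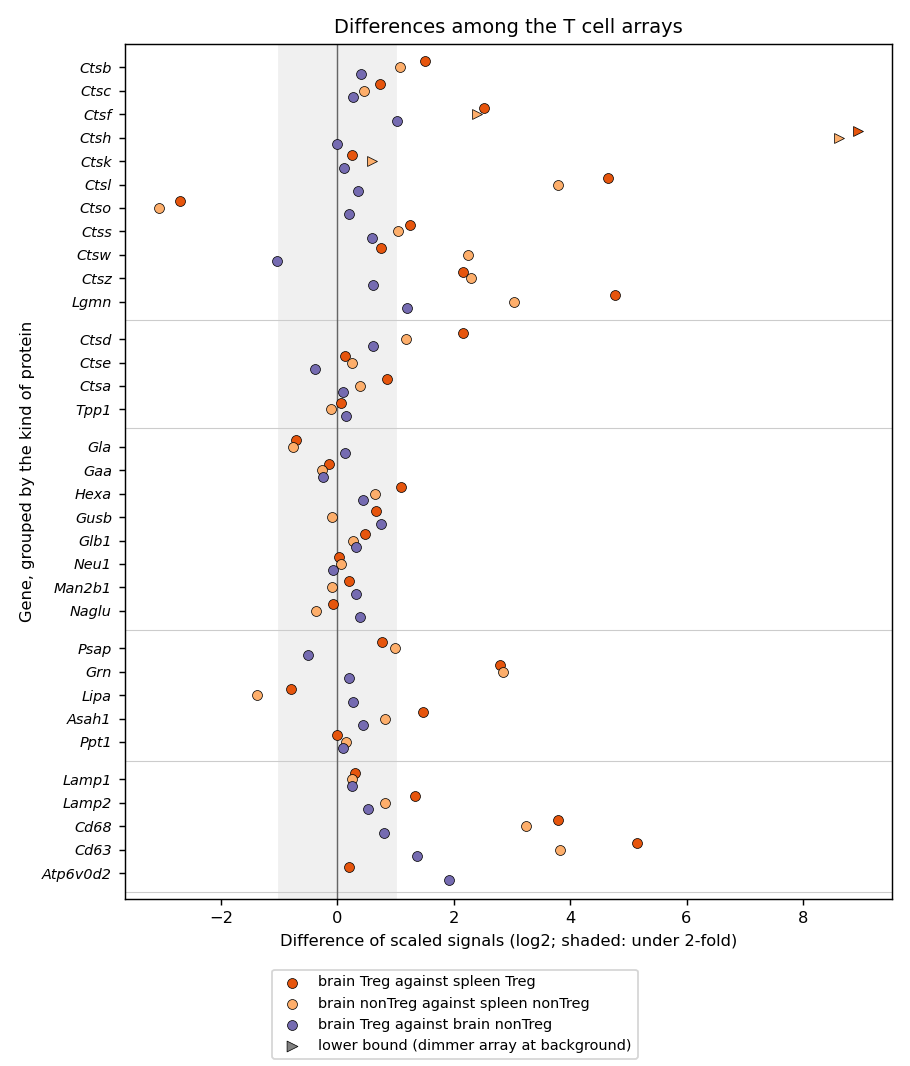
Log2 difference of scaled signals for each of the 33 genes in brain Treg against spleen Treg, brain nonTreg against spleen nonTreg and brain Treg against brain nonTreg; triangles are lower bounds and the shaded band is under 2-fold. In the first comparison 14 genes lie right of the band and in the last 4 do, and Ctso lies left of it in both brain and spleen comparisons.

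Against the library labelled brain nonTreg, brain Treg was higher by 2-fold or more in 4 of 33 genes and lower by as much in 1, beside 4.63% higher and 2.86% lower of all 13756 genes compared. They were Atp6v0d2 (3.76-fold), Cd63 (2.57-fold), Lgmn (2.28-fold) and Ctsf (2.02-fold), and with normexp background correction the count was 2, without Atp6v0d2 and Ctsf. Ctsf also lay just under 2-fold with the other probe set for the percentile and with the deposited series table, where the count was 3. Ctsw was 2.06-fold lower in brain Treg. A small difference towards Treg ran through the group, 27 of 33 genes being above 0 where 50.8% of all measured genes were, with a median log2 difference of 0.32. In the spleen 1 of 32 genes was higher in Treg (Atp6v0d2, at least 2.73-fold) and 0 lower, beside 5.38% and 3.24% of 12546 genes, and the median was -0.01. The spleen count of 1 ran from 0 to 2 over the alternative settings.

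The brain difference in Treg minus that in nonTreg had a median of 0.29 over 29 genes, against 0.02 for all 11301 genes, and was above 0 for 22 of the 29, where 52.0% of all genes were. It reached 2-fold upward for Lgmn (1.72) and Cd63 (1.32) and downward for Ctsw (-1.49), beside 2.30% upward and 3.79% downward of all genes. Each of these 3 was also at least 2-fold apart between brain Treg and brain nonTreg, a comparison that uses the same brain arrays.

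Markers of other cells were measured in the brain T cell libraries as well. All 12 microglia markers and 12 of 13 macrophage and monocyte markers were well above background in both brain libraries, while 4 and 5 of the 12 and 2 and 2 of the 13 were in spleen Treg and spleen nonTreg. Cd163 was the macrophage marker not well above background on any T cell array, and Tmem119, P2ry12, Sall1 and Trem2 were among the microglia markers that neither spleen array detected well above background. The summed signal of the microglia list was 54020 and 28950 in the Treg and nonTreg of the brain and 25500 and 25220 in those of the spleen, and that of the macrophage and monocyte list was 59280, 66920, 14580 and 19540. Siglech and Ly6c2, named here after their values were seen, made up most of the spleen sums, with 24160 for Siglech and 14420 for Ly6c2 in spleen Treg. Of the 8 endothelial markers, all were well above background in both brain libraries and 2 in each spleen library; 5 were at least 2-fold higher in brain than in spleen Treg and 7 in nonTreg, with summed signals of 31810 and 55920 in the Treg and nonTreg of the brain and 16540 and 21680 in those of the spleen. Of the dendritic cell markers compared, 5 of 7 were higher and 1 lower in brain than in spleen Treg, and 4 of 7 higher and 1 lower in nonTreg, with summed signals of 21510, 21150, 36090 and 44720 in the same order. Siglech is also in this list. Of its 8 markers 7 were well above background on each brain array and 2 on each spleen array, so the higher spleen sums do not mean more markers detected. Fibroblast and pericyte markers were higher in 4 of 5 compared in Treg and 4 of 6 in nonTreg, with summed signals of 266.3, 515.3, 35.1 and 33.5. CD8 T and NK cell markers were at least 2-fold higher in brain than in spleen in 5 of 9 compared in Treg and 7 of 10 in nonTreg. In that list 0 were lower in either cell type. Its summed signals were 4328 and 10880 in the Treg and nonTreg of the brain and 1244 and 2521 in those of the spleen. T cell markers did not differ by 2-fold in any of the 4 T cell comparisons, with summed signals from 252800 in brain Treg to 282600 in spleen nonTreg.

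In brain Treg against brain nonTreg, 9 of 12 microglia markers (median log2 difference 1.30) and 9 of 12 macrophage and monocyte markers compared (median 1.23) were at least 2-fold higher. In the same comparison 9 of 10 CD8 T and NK cell markers were lower (median -1.59), the largest difference being in Klre1 (5.20-fold lower). Endothelial markers were below 0 in 8 of 8 (median -0.70) and 1 of them was at least 2-fold lower, while 2 of 6 fibroblast and pericyte markers were at least 2-fold lower and 0 higher. The microglia markers differed most in Sall1 (4.50-fold higher) and the macrophage markers in Ms4a7 (3.28-fold higher). Not all myeloid lists went this way: 1 of 7 dendritic cell markers compared was at least 2-fold higher (median -0.22). Of 6 neutrophil markers compared, 0 were higher and 1 lower (median -0.11). The summed macrophage and monocyte signal was lower in brain Treg, at 59280 against 66920. Lysosomal genes that were higher in brain Treg thus went with most microglia and macrophage markers. Ctsw went with CD8 T and NK cell markers in the brain but not in the spleen. For spleen Treg against spleen nonTreg, 6 of 7 markers of that list compared were at least 2-fold lower (median -1.97). The log2 difference of Ctsw there was 0.445, in the opposite direction. The part of such cells in these differences was not tested.

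Other lysosomal lists in brain against spleen Treg were mixed. Of 29 other hydrolases 9 were higher and 1 lower (median log2 difference 0.60), with the carboxypeptidase Scpep1 6.73-fold higher. Of 29 membrane proteins and transporters 3 were higher and 3 lower (median 0.01), Slc15a3 being 48.8-fold higher and the channel Tpcn1 3.25-fold lower. In contrast to the tissue after stroke, 0 of 19 vacuolar ATPase subunits were lower, beside 11.7% of all genes compared. Of the 19, 4 were higher (median 0.54), led by Atp6ap1 (2.25-fold). That share of 21.1% was near the 17.2% of all genes that were higher. Sorting genes had 2 of 18 higher and 2 lower (median 0.15), with Igf2r, the large mannose 6-phosphate receptor, 3.68-fold lower. Among cystatins and other protease inhibitors 6 of 9 were higher and 1 lower (median 2.01), and Cst3, cystatin C, an inhibitor of cysteine cathepsins, was 17.4-fold higher. MHC class II loading had 8 of 10 higher and 1 lower (median 3.69), autophagy 5 of 20 higher and 1 lower (median 0.28), cytotoxic granule genes 7 of 14 higher and 0 lower (median 0.73) and the MiT/TFE and mTORC1 list 1 of 17 higher and 1 lower (median 0.05).

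In brain Treg against brain nonTreg these lists held few genes at 2-fold, beside 4.63% higher and 2.86% lower of all genes compared. Of the other hydrolases 2 of 29 were higher and 0 lower, among them the phospholipase Pla2g15 by 2.02-fold. Of the membrane proteins and transporters 3 of 28 were higher and 1 lower, with Slc11a1 2.87-fold higher. In the vacuolar ATPase list, which leaves out Atp6v0d2, 0 of 19 subunits were higher or lower. Rragd, a GTPase of the lysosomal mTORC1 machinery, was 4.29-fold higher in brain Treg, the 1 of 17 genes of its list that reached 2-fold. Cytotoxic granule genes had 4 of 14 lower and 1 higher, the granzyme Gzmk being 3.58-fold lower.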

How the data were processed

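Agilent Feature Extraction 10.7.1.1 read the spot intensities from the scans, per the file headers and the submitters' processing notes; the processed intensity used here is background-subtracted and detrended within each array and was deposited without normalization between arrays. The authors' deposited table holds a linear signal that the values showed to be this intensity divided by a constant per array (for 99.89% to 99.97% of probes, tolerance 0.1%), with column medians from 0.068 to 0.123; it served as an alternative. Signals of replicate spots were averaged, log2-transformed and scaled to each array's 75th percentile, taken over all probes for tissue and, for T cells, over those that all 4 arrays detected well above background. Of 56605 probes, 32994 matched 1 gene symbol through their RefSeq accession, 0 matched several and 23611 matched none. Each gene was read from whichever of its probes was brightest on average in the set; 22 of the 33 genes had 1 probe.

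A comparison took in every gene detected well above background by either of its arrays. Where the other array was dim, a bound was formed with the lowest well-detected value of that array, or the dim probe's value if higher. Printed signals were rescaled by the set's mean scaling point. There were 8 comparisons and no test, since each group has 1 array, and the number of arrays limits the precision. Genes were named where they reached 2-fold in any comparison; from each further list the 3 largest measured differences and from each marker list the largest could be named; a gene that this would name is left out of the text. The 33 genes, the lists (9 pathway and 13 marker lists; 4 of 334 symbols had no probe), comparisons and alternatives were chosen with earlier results of these data known. Alternatives were normexp background correction (limma 3.58.1, offset 50, on the median signal and median background columns), quantile normalization, another probe set or the median as scaling point, genes above background on both arrays, the median over all probes of a gene, keeping every dim probe and the deposited table. All 8 arrays share 1 scan, so no batch was split. Scripts ran in Python 3.11.15 and R 4.3.3.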

Additional observations from a re-analysis of the deposited data

Results flagged for a closer look

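In 7 of the 29 lysosomal genes measured on all 4 T cell arrays the difference between Treg and nonTreg had opposite signs in the brain and in the spleen, on measured values of more than 0.12 log2 each way, beside 17.0% of all 11301 genes measured on these arrays (1917 genes). The 7 of 29 are not far from that share. By the same rule 0 of 31 genes were flagged for the stroke effect between genotypes, beside 2.63% of all genes. For the brain effect between Treg and nonTreg it was 0 of 29 beside 6.36%. For DEREG against WT in ischemia and in sham it was 0 of 31 beside 11.9%. With 1 array per group the contrast between the organs was not tested, and no explanation was weighed. Lgmn was higher in Treg in the brain (1.19) and lower in the spleen (-0.54), a gap of 1.72 on the log2 scale. Ctsd had 0.62 in the brain and -0.36 in the spleen (gap 0.97), and Ctsl 0.36 and -0.50 (gap 0.86). Smaller gaps were seen in Asah1 (0.65), Lipa (0.58) and Ctso (0.36), all towards Treg in the brain. Ctsw ran the other way, with -1.05 in the brain and 0.45 in the spleen (gap -1.49).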

How the results depend on the processing

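Across 8 alternative settings 0 of the reported differences changed sign once called at 2-fold. In WT tissue the number of the 33 genes at least 2-fold higher after stroke ran from 26 to 29 and in DEREG tissue from 27 to 29; between the genotypes it was 1 in ischemia and 0 in sham under each setting. It ran from 13 to 15 for brain against spleen Treg and from 9 to 14 for nonTreg. For brain Treg against brain nonTreg, 4 genes became 2 with normexp background correction and 3 with the other probe set for the percentile or the deposited series table. For spleen Treg against spleen nonTreg, 1 gene became 0 with normexp background correction, 0 with only genes above background on both arrays, 0 with the median over a gene's probes and 2 with no filter on dim probes; the gene is Atp6v0d2, whose signal there is near background. The settings moved the median of all genes between -0.36 and -0.10 in the WT stroke comparison and between -0.39 and -0.02 in brain against spleen nonTreg, while the median of the 33 genes minus that of all genes ran from 2.94 to 3.26 and from 0.52 to 1.04. The share of all genes above 0 in DEREG against WT ischemia ran from 48.5% to 66.1%. No paired analysis was possible because each group has 1 array. Dim probes limit Ctse, Atp6v0d2, Ctsf, Ctsh and Ctsk to bounds in some comparisons. Causes of these shifts were not tested.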

Other observations

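Probes of progranulin (Grn) did not all give the same picture of sham tissue. One further probe had a signal of 182.0 in WT sham and 692.6 in DEREG sham, a log2 difference of 1.93, while the probe used above had 5870 and 5791 and the third probe 452.9 and 442.0. On the ischemia arrays the deviating probe had 4330 in WT and 8370 in DEREG, so that its stroke difference was 4.57 in WT and 3.60 in DEREG, and all of the Grn probes were higher after stroke in both genotypes. It was the only further probe of the 33 genes over 2-fold from the probe used in any of the 4 tissue comparisons, and the values are given without an explanation. Probes differed more between brain and spleen T cells. There 2 of 11 further probes in Treg and 4 of 10 in nonTreg lay over 2-fold from the probe used. In each of these comparisons the 2-fold call differed for 2 further probes. In Treg against nonTreg, 0 lay so far apart in either organ.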
